A study of Homo sapiens with 12 samples.

Results

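The 10 immediate early genes described here, FOS, FOSB, JUN, JUNB, JUND, EGR1, ATF3, IER2, IER3 and MYC, were taken by gene symbol from a deposited expression matrix of 78894 genes. Each symbol matched 1 gene. Their levels were measured by 3′-end mRNA sequencing in 12 samples of cardiomyocytes, derived from human induced pluripotent stem cells, in a 2 by 2 design of endothelin-1 and sacubitrilat. Endothelin-1 is a vasoconstrictor peptide that signals through Gq-coupled receptors and enlarges cardiomyocytes. Sacubitrilat inhibits neprilysin, a cell-surface peptidase that cleaves natriuretic peptides and endothelin-1. The 4 groups had received 10 nM endothelin-1 with 16 µM sacubitrilat (here "both"), 10 nM endothelin-1, 16 µM sacubitrilat, or vehicle, labelled as DMSO, each for 48 h. Every group held 3 samples of the WTC-mEGFP-ACTN2-cl85 line, which the labels call biological replicates without saying whether they were separate differentiations or wells. That line is 1 clone, and all groups share its heterozygous mEGFP tag at the C-terminus of ACTN2, its cardiac differentiation and its enrichment in lactate medium. Groups were taken from the titles, the library names and the labelled treatments, which match each other. The free-text description conflicts with them: there, the 3 endothelin-1 libraries are called sacubitrilat, and the 3 sacubitrilat ones are called endothelin-1. Were the description right, the values of these 2 groups would change places, and the sign of endothelin-1 against sacubitrilat would turn.

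Immediate early genes are transcribed within minutes of a stimulus, from factors already present in the cell, and their short-lived mRNAs usually decay within hours. FOS and JUN proteins pair to form the transcription factor AP-1, EGR1 is a zinc finger factor induced through serum response factor, and MYC drives genes of growth and ribosome production. In cardiomyocytes, endothelin-1 and other hypertrophic agonists are known to induce FOS, JUN and EGR1 early and briefly through MAP kinases. The libraries hold the later state, 48 h after treatment began, and earlier times were not analysed here.

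The amount of data behind each value differed between groups. Total counts were 1268308 to 1953122 in the 6 libraries of a single compound and 80844 to 316932 in the 6 libraries of both and vehicle. A count of 0 allows up to 3 counts, which stood for 1.54 CPM (counts scaled to a common library total) in the deepest library and 37.1 CPM in the shallowest, counting error only. Summed endothelin-1 counts were 13.1 times those of both, 8.75 times those of vehicle and 1.09 times those of sacubitrilat. Summed sacubitrilat counts were 12 times those of both and 8.06 times those of vehicle. Summed counts of both were 0.67 times those of vehicle. So endothelin-1 against sacubitrilat, and both against vehicle, set libraries of like total side by side. All other comparisons set high totals against low totals, and there depth and treatment cannot be told apart. All 15 cardiomyocyte markers had counts, 13 of them in every library. Their summed level was 26100 to 54500 CPM with both, 26700 to 28300 with endothelin-1, 18800 to 19600 with sacubitrilat and 24200 to 31100 with vehicle. Of the 5 pluripotency markers found, no library had a summed level over 22.9 CPM.

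The upstream region of the members is shown because it is where the factors named above are known to act. RefSeq promoter windows of 300 bases, 250 before and 50 after the start of transcription (GRCh38.p14), were used for 8 members. Capitals mark the CArG box, to which serum response factor binds, the half-site TGACG, the site TGANNTCA (both of the cAMP response element kind) and TATAAA, each searched on both strands. EGR1 (chr5:138465229-138465528, plus strand), JUNB (chr19:12791236-12791535, plus strand) and JUND (chr19:18281573-18281872, minus strand) were the 3 members called lower with both than with endothelin-1. JUN (chr1:58783998-58784297, minus strand) and FOS (chr14:75278578-75278877, plus strand) each differed between other groups. All 5 are written 5′ to 3′ along their own strand.
EGR1: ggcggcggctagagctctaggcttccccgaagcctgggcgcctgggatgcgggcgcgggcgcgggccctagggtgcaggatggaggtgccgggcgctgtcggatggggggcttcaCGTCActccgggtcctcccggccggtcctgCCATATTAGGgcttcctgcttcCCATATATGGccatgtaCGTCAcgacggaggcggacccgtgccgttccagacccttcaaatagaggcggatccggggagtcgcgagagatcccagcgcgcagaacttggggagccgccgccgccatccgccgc
JUNB: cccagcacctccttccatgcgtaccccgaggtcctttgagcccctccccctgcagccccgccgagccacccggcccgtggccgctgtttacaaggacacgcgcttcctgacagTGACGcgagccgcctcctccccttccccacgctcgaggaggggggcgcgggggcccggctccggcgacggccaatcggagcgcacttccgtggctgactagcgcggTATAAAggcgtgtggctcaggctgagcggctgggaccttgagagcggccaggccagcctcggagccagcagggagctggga
JUND: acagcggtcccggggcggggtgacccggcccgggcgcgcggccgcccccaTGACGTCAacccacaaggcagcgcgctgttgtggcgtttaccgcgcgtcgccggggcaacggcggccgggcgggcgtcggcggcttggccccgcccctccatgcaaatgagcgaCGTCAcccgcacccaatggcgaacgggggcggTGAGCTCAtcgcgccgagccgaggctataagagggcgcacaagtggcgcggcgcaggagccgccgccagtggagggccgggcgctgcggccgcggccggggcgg
JUN: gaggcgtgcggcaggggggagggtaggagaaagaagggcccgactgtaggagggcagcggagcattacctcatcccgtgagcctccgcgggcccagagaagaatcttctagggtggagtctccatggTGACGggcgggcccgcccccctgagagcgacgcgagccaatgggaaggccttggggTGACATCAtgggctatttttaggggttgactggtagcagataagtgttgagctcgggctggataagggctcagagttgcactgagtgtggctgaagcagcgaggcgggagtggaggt
FOS: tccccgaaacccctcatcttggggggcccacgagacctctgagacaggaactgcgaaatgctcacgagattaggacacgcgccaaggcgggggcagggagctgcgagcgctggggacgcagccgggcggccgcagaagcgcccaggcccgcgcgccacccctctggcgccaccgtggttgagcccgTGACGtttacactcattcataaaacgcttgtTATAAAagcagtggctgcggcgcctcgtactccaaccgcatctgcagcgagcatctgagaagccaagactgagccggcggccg

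EGR1 was the sole member with a CArG box in the window, and it had 2, which began 105 and 83 bases before the start. A CArG box was present in 1.29% of 35116 windows over all genes. Bases more than 250 before the start were not searched, so a box there would be missed. The half-site TGACG was found in 7 of the 8 members and in 24.6% of all windows. In JUND, 3 such matches began 200, 197 and 86 bases before the start, and the first pair overlap within 1 palindrome that is also a TGANNTCA match. TGANNTCA was found in 3 of 8 members and 11.5% of all windows, and in JUN it began 67 bases before the start. TATAAA was found in 4 of 8 members and 11.5% of all windows, at 33 bases before the start in FOS, 31 in JUNB and 30 in FOSB. In ATF3 it began 230 bases before the start. ATF3 had more than 1 window and was counted if any window matched. The AP-1 site TGANTCA was in 0 of the 8 members and in 7.71% of all windows. A match is a description of letters, and the libraries do not measure binding.

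FOS (ENSG00000170345, chromosome 14, 75278774 to 75282230, plus strand) encodes the founding Fos partner of AP-1. It stood at 34.4, 25.2 and 14.8 CPM with both, 6.74, 8.14 and 9.31 with endothelin-1, 6.61, 4.73 and 6.14 with sacubitrilat, and 15.8, 12.4 and 0 with vehicle. All 3 libraries of both lay above all 6 libraries of a single compound, and overlapped vehicle. These levels came from 9 counts with both, 40 with endothelin-1, 27 with sacubitrilat and 6 with vehicle. FOS was the one member with its highest mean in both, at 24.8 ± 9.78 CPM, against 9.38 ± 8.3 CPM with vehicle (SD, n = 3). Positions of genes here and below are on GRCh38, from the GENCODE v29 annotation.

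FOSB (ENSG00000125740, chromosome 19, 45467995 to 45475179, plus strand) encodes another Fos protein with the same kind of partners. It had 0, 6.3 and 0 CPM with both, 3.93, 10.2 and 7.56 with endothelin-1, 8.08, 4.73 and 5.12 with sacubitrilat, and 6.31, 24.7 and 17.6 with vehicle. Every pair of groups next to each other in the order of means (vehicle, endothelin-1, sacubitrilat, both) overlapped. FOSB was too low to pass the filter on counts and was not tested. Its summed counts were 1 with both and 7 with vehicle, a ratio per library total of 0.213 with a 95% counting interval of 0.00473 to 1.66.

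JUN (ENSG00000177606, chromosome 1, 58780788 to 58784327, minus strand) encodes the main Jun partner of AP-1. Its level was 45.8, 31.5 and 51.9 CPM with both, 64.8, 56.3 and 59.9 with endothelin-1, 110, 93.8 and 104 with sacubitrilat, and 66.3, 12.4 and 105 with vehicle. The 3 treated groups did not overlap each other, in the order sacubitrilat, endothelin-1, both, while vehicle overlapped each of them. Vehicle replicate 2, at 12.4 CPM, rested on 1 count.

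JUNB (ENSG00000171223, chromosome 19, 12791496 to 12793315, plus strand) encodes a Jun protein that in many settings is a weaker activator than JUN. It stood at 57.3, 6.3 and 44.5 CPM with both, 78.0, 76.7 and 84.9 with endothelin-1, 50.7, 41.8 and 54.3 with sacubitrilat, and 78.9, 235 and 23.4 with vehicle. The endothelin-1 libraries lay above every library of both and of sacubitrilat. Vehicle covered a wider range than all the other libraries together, and its mean was 112 ± 110 CPM (SD, n = 3).

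JUND (ENSG00000130522, chromosome 19, 18279760 to 18281622, minus strand) encodes the Jun protein that is present in most resting cells. It was at 115, 50.4 and 59.3 CPM with both, 117, 121 and 133 with endothelin-1, 134, 108 and 149 with sacubitrilat, and 101, 186 and 105 with vehicle. The endothelin-1, sacubitrilat and vehicle ranges overlapped one another, and 2 of the 3 libraries of both lay below all others. These levels came from 26 counts with both, 617.5 with endothelin-1, 610.5 with sacubitrilat and 65 with vehicle.

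ATF3 (ENSG00000162772, chromosome 1, 212565334 to 212620777, plus strand) encodes a stress-induced factor that pairs with Jun proteins and often represses. It had 11.5, 6.3 and 7.41 CPM with both, 7.3, 4.07 and 6.4 with endothelin-1, 9.55, 7.88 and 14.3 with sacubitrilat, and 15.8, 24.7 and 41.0 with vehicle. All 3 vehicle libraries lay above all 9 others. Each library of both held 1 count.

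EGR1 (ENSG00000120738, chromosome 5, 138465490 to 138469315, plus strand) encodes a zinc finger factor of growth and stress responses. It stood at 0, 25.2 and 29.6 CPM with both, 47.1, 59.0 and 58.7 with endothelin-1, 58.0, 41.0 and 35.8 with sacubitrilat, and 41.0, 124 and 29.3 with vehicle. The libraries of both lay below those of either single compound and overlapped vehicle. A count of 0 in replicate 1 of both allowed up to 34.4 CPM.

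IER2 (ENSG00000160888, chromosome 19, 13150415 to 13154908, plus strand) encodes a small nuclear protein of the early response. It was at 45.8, 28.3 and 44.5 CPM with both, 52.8, 55.6 and 64.8 with endothelin-1, 59.9, 58.7 and 69.9 with sacubitrilat, and 74.1, 179 and 17.6 with vehicle. The libraries of both lay below those of a single compound, and vehicle overlapped every group.

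IER3 (ENSG00000137331, chromosome 6, 30743199 to 30744554, minus strand) encodes a protein that prolongs ERK signalling and affects cell survival. It had 80.2, 75.6 and 74.1 CPM with both, 74.1, 65.8 and 76.8 with endothelin-1, 40.4, 41.8 and 53.8 with sacubitrilat, and 136, 136 and 147 with vehicle. Unlike the other members, IER3 was tight among the vehicle libraries, at 139 ± 6.14 CPM (SD, n = 3). Vehicle lay above all 9 other libraries, sacubitrilat lay below them all, and both and endothelin-1 overlapped in between.

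MYC (ENSG00000136997) encodes the growth factor-induced partner of MAX. It was at 11.5, 6.3 and 7.41 CPM with both, 14.0, 10.9 and 19.8 with endothelin-1, 20.6, 21.3 and 12.8 with sacubitrilat, and 25.2, 12.4 and 41.0 with vehicle. Neighbours in its order of means (vehicle, sacubitrilat, endothelin-1, both) overlapped throughout. Each library of both held 1 count, and the summed counts of both and vehicle, 3 and 16, gave a ratio of 0.28 with a 95% counting interval of 0.0522 to 0.977.

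**Figure D1:**
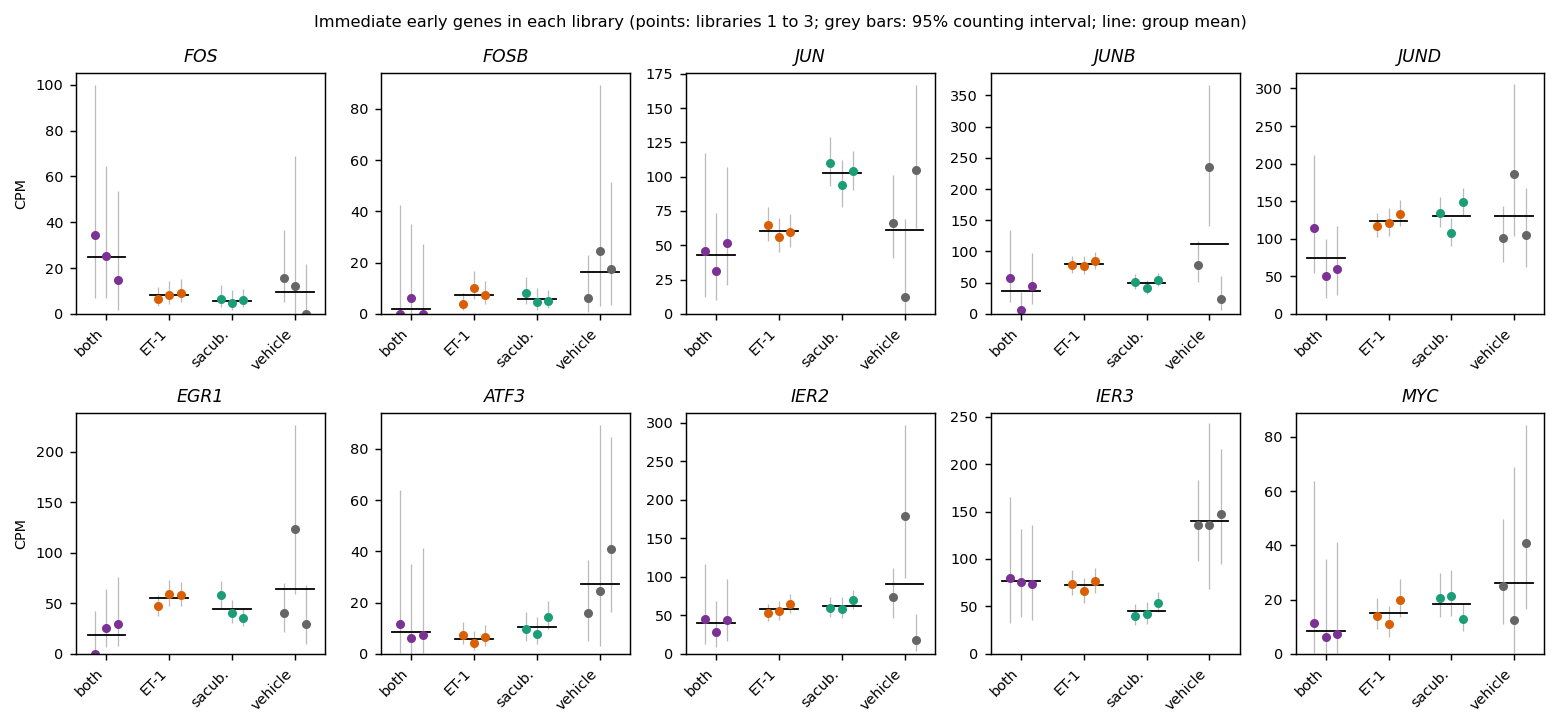
Level of each immediate early gene in CPM (vertical axis, linear, its own scale per gene) in the 3 libraries of each group, with a 95% counting interval per library as a grey bar and the group mean as a black line. IER3 is at 136 to 147 CPM in vehicle and 40.4 to 53.8 CPM in sacubitrilat, while JUNB in vehicle runs between 23.4 and 235 CPM.

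Vehicle had the highest mean of the 4 groups for 8 of the 10 genes, all but FOS and JUN, and both had the lowest mean for 7. With counts pooled per group, JUND was at 114 CPM in vehicle, below 124 with endothelin-1 and 133 with sacubitrilat. EGR1 was then at 49.3 CPM in vehicle, below 54.7 with endothelin-1 and above 43.9 with sacubitrilat. Of the 30 pairs of groups next to each other in the order of means, 21 overlapped. These orders and overlaps were not set against those of all tested genes. The vehicle libraries did not rank the members alike. Replicate 2, the shallowest library, was highest of its group for FOSB, JUNB, JUND, EGR1 and IER2 and lowest for JUN and MYC, whereas replicate 3 was highest for JUN, ATF3, IER3 and MYC and lowest for FOS, JUNB, EGR1 and IER2. The coefficient of variation over replicates had a median over the 10 genes of 36.0% with both, 11.6% with endothelin-1, 16.5% with sacubitrilat and 66.8% with vehicle. Depth moved with this spread, as 5, 4 and 4 of the 10 genes held 3 or fewer counts in the libraries of both and 1, 5 and 3 in those of vehicle, against 0 in every library of a single compound. Summed over the 10 genes, the level was 401, 261 and 333 CPM with both, 466, 468 and 522 with endothelin-1, 498, 424 and 505 with sacubitrilat, and 560, 946 and 527 with vehicle. Every library of both lay below, and every vehicle library above, all 6 libraries of a single compound. Fewer cells with these transcripts and less of them per cell cannot be told apart in bulk libraries.

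**Figure D2:**
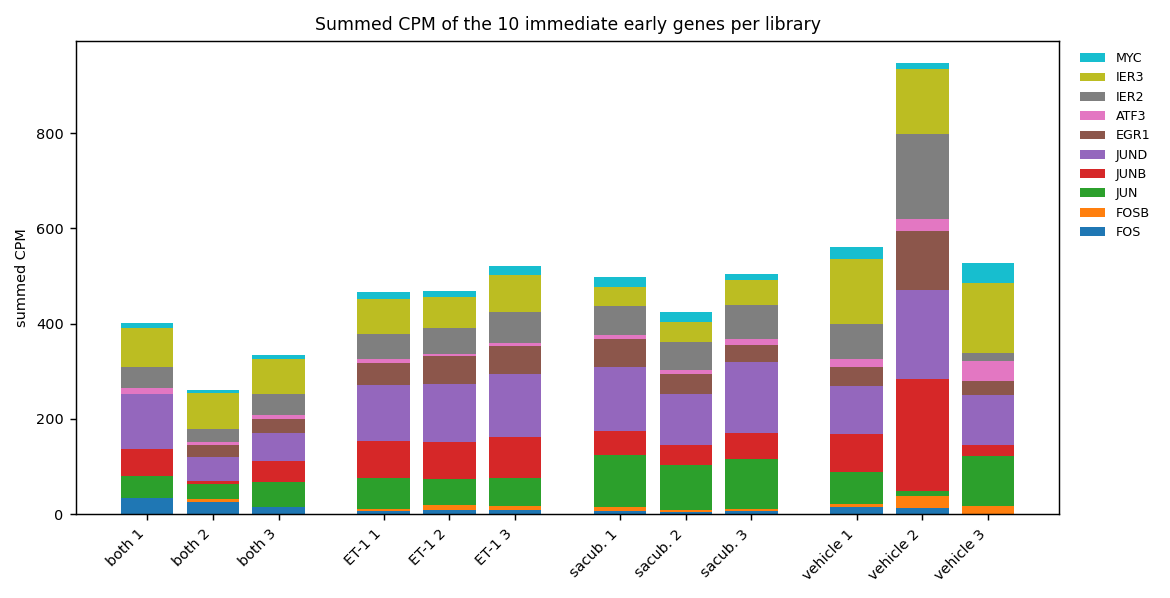
Summed CPM of the 10 immediate early genes in each of the 12 libraries (bars start at 0, colours are genes). Vehicle replicate 2 reaches 946 CPM, with JUNB, EGR1 and IER2 taking more than in the other vehicle libraries, and the 3 libraries of both reach 401, 261 and 333 CPM.

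Endothelin-1 against vehicle, 1 of the 2 comparisons that the series names as primary, asked what the hypertrophic peptide changed. At 48 h no immediate early gene was called higher with endothelin-1. ATF3 fell by 1.98 ± 0.53 on the log2 scale (edgeR adjusted p = 0.00543) and IER3 fell by 0.90 ± 0.21 (edgeR adjusted p = 0.00117), with n = 3 per group and log2 fold changes given ± SE here and below. These 2 of 9 tested members compare with 23.2% of the 11203 genes tested, of which 12.2% were lower, so the share called was near the background. The 3 members best known as early targets of the peptide were not called, at 0.18 ± 0.34 for EGR1, -0.18 ± 0.29 for JUN and -0.35 ± 0.66 for FOS. The 95% interval ran from -0.49 to 0.85 for EGR1, from -0.74 to 0.38 for JUN and from -1.65 to 0.95 for FOS. The median over the 9 members was -0.29, beside 0.10 over all tested genes. Without vehicle replicate 3 the ATF3 value was -1.43 (edgeR adjusted p = 0.159), and without vehicle replicate 1 the IER3 value was -0.66 (edgeR adjusted p = 0.102). With no filter on low counts IER3 was also at -0.66 and not called (edgeR adjusted p = 0.0549). Summed markers of endoderm and liver moved the same way, at 56.7 to 88.9 CPM with endothelin-1 and 210 to 705 CPM with vehicle, with 7 of 7 tested called lower and a median of -2.48, and their part in the result was not tested. AFP, ALB, CDH1, FOXA2 and SOX17 were among these markers and were at 0 in some libraries. P-values measure only the spread between these samples of 1 clone, part of which may be technical.

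Both against endothelin-1, the other primary comparison, asked what the neprilysin inhibitor changed in cells given the peptide. Of 9 members tested, 3 were called lower and none higher, against a background of 34.4% of all tested genes called and 17.8% called lower. JUNB fell by 1.37 ± 0.47 (edgeR adjusted p = 0.0224), JUND fell by 0.90 ± 0.30 (edgeR adjusted p = 0.0197) and EGR1 fell by 1.41 ± 0.53 (edgeR adjusted p = 0.0355). FOS had the opposite sign, 1.50 ± 0.61, and just missed the threshold (edgeR adjusted p = 0.0523). It passed with DESeq2 (adjusted p = 0.0285), with limma-voom (adjusted p = 0.00601) and when only the 2 groups were fitted (edgeR adjusted p = 0.0235). IER3 was at 0.03 ± 0.29, with a 95% interval of -0.54 to 0.61. The CPM ranges of both lay wholly below those of endothelin-1 for JUN, JUNB, JUND, EGR1 and IER2 and wholly above for FOS. These were 6 of 10 genes, of which FOSB was not tested, beside 52.5% of all tested genes. The median over the members was -0.69, beside -0.23 over all tested genes. Summed endoderm and liver markers were at 482 to 596 CPM with both and 56.7 to 88.9 CPM with endothelin-1, with 6 of 7 tested higher and 0 lower, and their part in the result was not tested. Each of the 3 calls was lost without some library. Without replicate 2 of both, JUNB was at -0.94 (edgeR adjusted p = 0.158) and JUND at -0.86 (edgeR adjusted p = 0.0836), and without replicate 1 of both, EGR1 was at -1.10 (edgeR adjusted p = 0.116). JUNB also lost its call without any 1 endothelin-1 or sacubitrilat library (-1.29 to -1.21) and with DESeq2 (adjusted p = 0.0929), EGR1 without replicate 2 or 3 of either (-1.30 to -1.24), and JUND without endothelin-1 replicate 3 (-0.72, edgeR adjusted p = 0.072).

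Sacubitrilat against vehicle asked what the inhibitor changed alone. IER3 fell by 1.67 ± 0.22 (edgeR adjusted p = 6.78e-07), to 45.3 ± 7.35 CPM with sacubitrilat, against 139 ± 6.14 CPM with vehicle (SD, n = 3), a ratio of 0.334 in summed counts with a 95% counting interval of 0.257 to 0.439. It was the sole call among 9 members tested, beside 19.9% of all tested genes, and it passed under every alternative that was run, each library left out included. JUNB was at -0.86 ± 0.33 (edgeR adjusted p = 0.057) and ATF3 at -1.23 ± 0.49 (edgeR adjusted p = 0.0685). JUNB passed without vehicle replicate 3, its lowest vehicle library (-1.20, edgeR adjusted p = 0.00737), and ATF3 passed with limma-voom (-1.34, adjusted p = 0.0155). The median over the members was -0.77, beside 0.14 over all tested genes. Summed markers of endoderm and liver were at 52.9 to 65.5 CPM with sacubitrilat and 210 to 705 CPM with vehicle, 0 of 7 tested called higher and 6 lower, and their part in the result was not tested.

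Both against sacubitrilat asked what the peptide changed in cells given the inhibitor. FOS rose by 2.06 ± 0.65 (edgeR adjusted p = 0.0123) and IER3 rose by 0.80 ± 0.32 (edgeR adjusted p = 0.049), while JUN fell by 1.21 ± 0.37 (edgeR adjusted p = 0.00976) and JUND fell by 0.87 ± 0.30 (edgeR adjusted p = 0.0244). The 4 of 9 members called stand beside 35.0% of all tested genes. FOS reached 24.8 ± 9.78 CPM with both, against 5.83 ± 0.979 CPM with sacubitrilat (SD, n = 3), a ratio of 4.01 in summed counts with a 95% counting interval of 1.66 to 8.78. JUN stood at 43.1 ± 10.5 CPM with both and 103 ± 8.25 CPM with sacubitrilat (SD, n = 3). Without replicate 2 of both, no member was called, with JUN at -1.18 (edgeR adjusted p = 0.0515) and FOS at 1.78 (edgeR adjusted p = 0.108), so that the folds stayed near their size while the calls were lost. FOS also lost its call without replicate 1 of both (1.79, edgeR adjusted p = 0.08), without both libraries under 100000 counts (1.85, edgeR adjusted p = 0.0672) and with no filter on low counts (1.57, edgeR adjusted p = 0.0853). IER3 lost it without any 1 library of vehicle or of both (0.56 to 0.72), without both libraries under 100000 counts (0.77, edgeR adjusted p = 0.0918) and with no filter, where it was at 0.31 (edgeR adjusted p = 0.748). Vehicle is not in this comparison, but the filter was applied anew. Without 1 vehicle library it kept 13684 to 14076 genes, against 11203 in the main fit. The median over all genes was then -0.41 to -0.32, against -0.25. EGR1 (-1.47, edgeR adjusted p = 0.0281) and IER2 (-1.19, edgeR adjusted p = 0.0262) were called with no filter. Summed endoderm and liver markers were at 482 to 596 CPM with both and 52.9 to 65.5 CPM with sacubitrilat, with 6 of 7 tested higher, and their part in the result was not tested. JUND lost its call when only the 2 groups were fitted (-0.74, edgeR adjusted p = 0.0589), without any 1 endothelin-1 library (-0.75 to -0.74), sacubitrilat replicate 1 or 3, or replicate 2 or 3 of both (-0.94 to -0.64). Endothelin-1 libraries are outside this comparison too, and without 1 of them the filter kept 7243 to 7272 genes, with a median of -0.09.

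Both against vehicle, in libraries of like and low total, gave no called member, beside 0.179% of all tested genes called. DESeq2 and limma-voom also called 0 of the 9, beside 1.39% and 0.0893% of all tested genes. An unadjusted edgeR p under 0.05 was found for 4 members, JUNB, JUND, IER3 and MYC. The shares of all tested genes with such a p, or with a negative log2 fold change, were not counted. The log2 fold change was negative for 8 of 9 members, all but FOS, with a median of -0.98 beside -0.08 over all tested genes. The values were -1.43 ± 0.56 for JUNB (edgeR adjusted p = 0.292), -0.87 ± 0.32 for IER3 (edgeR adjusted p = 0.249), -1.82 ± 0.84 for MYC (edgeR adjusted p = 0.389) and 1.15 ± 0.77 for FOS (edgeR adjusted p = 0.597). The CPM range of both lay wholly below that of vehicle for FOSB, ATF3, IER3 and MYC. These were 4 of 10 genes, beside 12.8% of all tested genes in either direction and 7.83% lower. FOSB was not among the tested genes and had a summed count of 1 with both. ATF3 and MYC had 1 count in each library of both. The IER3 ratio in summed counts was 0.548 with a 95% counting interval of 0.345 to 0.848.

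Endothelin-1 against sacubitrilat set the 2 single compounds side by side at like depth (1.09 times the summed counts), and it separated the Jun genes. JUN fell by 0.64 ± 0.14 (edgeR adjusted p = 0.000823), JUNB rose by 0.80 ± 0.17 (edgeR adjusted p = 0.000866), and JUND did not differ beyond its error, 0.03 ± 0.12, with a 95% interval of -0.20 to 0.26. JUN had 60.3 ± 4.27 CPM with endothelin-1 and 103 ± 8.25 CPM with sacubitrilat (SD, n = 3), whereas JUNB had 79.9 ± 4.42 CPM with endothelin-1 and 48.9 ± 6.43 CPM with sacubitrilat (SD, n = 3). IER3 rose by 0.76 ± 0.14 (edgeR adjusted p = 0.00014), to 72.2 ± 5.71 CPM with endothelin-1, against 45.3 ± 7.35 CPM with sacubitrilat (SD, n = 3). These 3 of 9 members stand beside 11.2% of all tested genes. The groups did not overlap for JUN, JUNB, IER3, FOS and ATF3. These were 5 of 10 genes, of which FOSB was not tested, beside 35.8% of all tested genes. EGR1, at 0.43 ± 0.17, was not called (edgeR adjusted p = 0.107) but passed when only these 2 groups were fitted (edgeR adjusted p = 0.036). IER2, at -0.02 ± 0.16, had a 95% interval of -0.33 to 0.30. With limma-voom JUN (-0.65, adjusted p = 0.132) and JUNB (0.82, adjusted p = 0.15) were not called, and with DESeq2 JUNB was not (0.83, adjusted p = 0.415), at folds close to those of edgeR. Of 15 cardiomyocyte markers, 8 were higher and 0 lower, and of 9 epicardial markers 0 were higher and 6 lower. The shares of all tested genes were 6.44% and 4.78%. Summed cardiomyocyte markers were at 26700 to 28300 CPM with endothelin-1 and 18800 to 19600 CPM with sacubitrilat. The part of these cell types in the result was not tested.

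**Figure D3:**
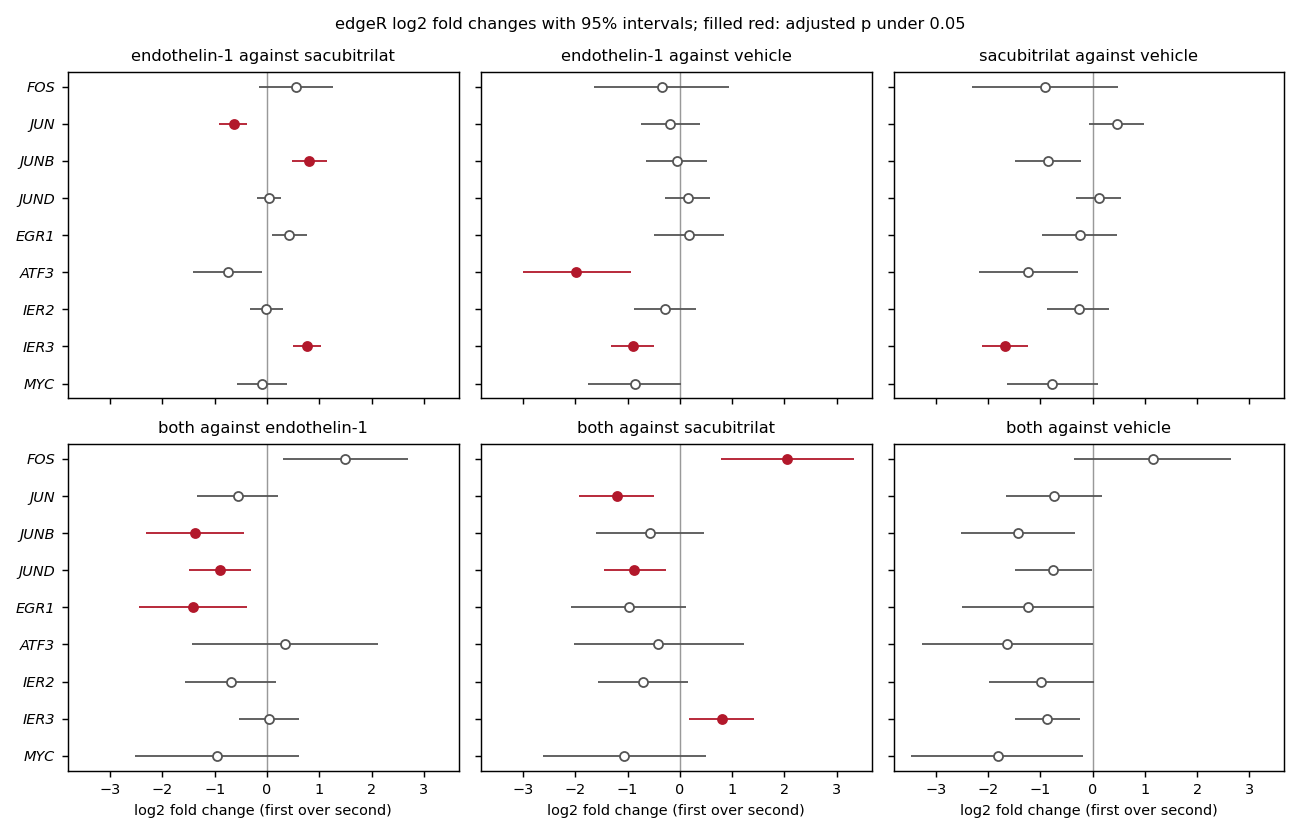
Log2 fold change of the 9 tested immediate early genes in the 6 pairwise comparisons (horizontal axis, first-named group over the second), with 95% intervals. Filled red points have an edgeR adjusted p under 0.05, and the narrow intervals of endothelin-1 against sacubitrilat, such as -0.91 to -0.38 for JUN, contrast with those of both against vehicle, such as -3.47 to -0.18 for MYC.

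The interaction, the effect of endothelin-1 with sacubitrilat minus its effect without, was called for 3 of 9 members, beside 46.1% of all tested genes. It was 2.41 ± 0.94 for FOS (edgeR adjusted p = 0.0348), 1.70 ± 0.39 for IER3 (edgeR adjusted p = 0.000504) and -1.01 ± 0.38 for JUND (edgeR adjusted p = 0.0272). For IER3, the effect of endothelin-1 was 0.80 with sacubitrilat present and -0.90 without it. The FOS value was 0.52 without vehicle replicate 1 (edgeR adjusted p = 0.821), and its call was also lost without vehicle replicate 2 or replicate 1 or 2 of both (2.07 to 2.27). The JUND call was lost without any 1 endothelin-1 library, sacubitrilat replicate 1 or 3, or replicate 2 of both (-1.04 to -0.72). With no filter on low counts, FOS (1.69, edgeR adjusted p = 0.255) and IER3 (0.97, edgeR adjusted p = 0.0996) were not called. JUND (-1.74, edgeR adjusted p = 0.000151), JUN (-1.76, edgeR adjusted p = 0.00192) and EGR1 (-1.89, edgeR adjusted p = 0.011) were then called lower, so that 0 members were higher and 3 lower, against 2 higher and 1 lower with the filter. JUN was also called with DESeq2 (-1.07, adjusted p = 0.0497) and without vehicle replicate 1 or 3 or replicate 3 of both (-1.60 to -1.46). Of the endoderm and liver markers, 7 of 7 tested were called higher in this contrast, with a median of 5.70, and their part in it was not tested. This contrast sums the groups of low total and subtracts those of high total, and its median over all tested genes was -0.43.

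The other primary response genes (42 listed, 37 tested) are induced by many of the same stimuli. With endothelin-1 against vehicle, 10 were called higher and 3 lower (27.0% and 8.11%, beside 1231 and 1365 of the 11203 genes tested). ID3, an inhibitor of basic helix-loop-helix factors, rose by 2.21 ± 0.25 (edgeR adjusted p = 1.41e-08), and CEBPB, a factor of inflammatory and stress programs, fell by 2.00 ± 0.34 (edgeR adjusted p = 2.28e-05). With both against endothelin-1, 3 were higher and 17 lower (8.11% and 45.9%, beside 16.6% and 17.8% of all tested genes), and the median was -1.06 beside -0.23 over all tested genes. ZFP36L1, which binds AU-rich mRNA and speeds its decay, fell by 2.17 ± 0.28 (edgeR adjusted p = 9.32e-08), whereas the orphan nuclear receptor gene NR4A2 rose by 2.83 ± 0.80 (edgeR adjusted p = 0.00596). With endothelin-1 against sacubitrilat 6 were higher, among them ID3 (0.51 ± 0.11) and the antiproliferative gene BTG1 (0.58 ± 0.13, edgeR adjusted p = 0.00115), and 0 lower, beside 6.44% and 4.78% of all tested genes. With both against vehicle the sole call was CCN1, a secreted matricellular protein, which fell by 2.72 ± 0.62 (edgeR adjusted p = 0.0469). Against sacubitrilat, both gave 3 higher and 11 lower, beside 17.2% and 17.8% of all tested genes, and sacubitrilat against vehicle gave 6 higher and 3 lower, beside 8.68% and 11.2%. The summed level of the list was 1070 to 1340 CPM with both, 2780 to 3010 with endothelin-1, 2530 to 2840 with sacubitrilat and 1820 to 1960 with vehicle, so the ranges of both and of vehicle lay below those of the single compounds. Summed fibroblast markers were also higher in the libraries of a single compound, at 2070 to 4640, 6900 to 7760, 7250 to 7560 and 1910 to 5200 CPM in these groups, with 7 of 11 tested lower in both than in endothelin-1, and their part in the result was not tested.

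The AP-1 targets tested numbered 13. With endothelin-1 against sacubitrilat 5 were higher and 0 lower, the cyclin gene CCND1 at 1.11 ± 0.11 (edgeR adjusted p = 2.08e-09) among them, beside 6.44% and 4.78% of all tested genes. With endothelin-1 against vehicle 3 were higher and 2 lower (23.1% and 15.4%, beside 1231 and 1365 of 11203 genes), and with both against endothelin-1 2 were higher and 5 lower (15.4% and 38.5%, beside 16.6% and 17.8%). TGFB1, the gene of the cytokine TGF-beta 1, was lower with endothelin-1 than with vehicle (-1.15 ± 0.24, edgeR adjusted p = 0.000524) and higher with both than with endothelin-1 (2.25 ± 0.22, edgeR adjusted p = 4.61e-10). Sacubitrilat against vehicle gave 0 higher and 3 lower, beside 8.68% and 11.2% of all tested genes. Both against sacubitrilat gave 3 higher and 1 lower, beside 17.2% and 17.8%. With 13 genes, 1 call is 7.69% of the list.

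Of 34 MYC targets tested, 1 was higher and 7 lower with endothelin-1 than with sacubitrilat (2.94% and 20.6%, beside 6.44% and 4.78% of all tested genes), where MYC itself was at -0.10 ± 0.25. ODC1, the first enzyme of polyamine synthesis, fell by 0.64 ± 0.12 (edgeR adjusted p = 0.000166), and FBL, a methyltransferase of ribosomal RNA, fell by 0.46 ± 0.11 (edgeR adjusted p = 0.00481). Their summed level was 4190 to 4540 CPM with both, 3450 to 3560 with endothelin-1, 4360 to 4430 with sacubitrilat and 4060 to 4370 with vehicle, so endothelin-1 lay below all other groups. With both against endothelin-1, 8 were higher and 4 lower (23.5% and 11.8%, beside 16.6% and 17.8%), and with both against sacubitrilat 5 were higher and 6 lower (14.7% and 17.6%, beside 17.2% and 17.8%). Against vehicle, endothelin-1 gave 2 higher and 3 lower and sacubitrilat 2 higher and 2 lower, shares below those of all tested genes. Of 14 partners and antagonists of MYC, both against vehicle called MLX, a MAX-like partner protein, lower (-4.26 ± 0.86, edgeR adjusted p = 0.0214).

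Genes of the pathway above and around the members were also counted. Of 25 MAP kinase cascade genes, 3 were higher and 1 lower with endothelin-1 than with vehicle, and 4 were higher and 4 lower with both than with endothelin-1. Of all tested genes, 23.2% were called in the first comparison and 34.4% in the second, so the shares of the cascade called, 4 and 8 of 25, were near or below the background. RPS6KA2, a ribosomal S6 kinase that acts below ERK, rose by 1.20 ± 0.29 in the first comparison (edgeR adjusted p = 0.00245) and fell by 2.04 ± 0.41 in the second (edgeR adjusted p = 0.000207). Of 13 MAP kinase feedback genes, 2 were higher and 1 lower with endothelin-1 than with vehicle (15.4% and 7.69%). SPRY1, an inhibitor of receptor tyrosine kinase signalling, fell by 1.22 ± 0.31 (edgeR adjusted p = 0.0033), and DUSP3, a MAP kinase phosphatase, rose by 0.91 ± 0.29 (edgeR adjusted p = 0.0201). SPRY4, of the same family as SPRY1, was called higher with endothelin-1 than with sacubitrilat (1.16 ± 0.31, edgeR adjusted p = 0.00982). NAB2, a co-repressor that binds EGR1, was higher with endothelin-1 than with vehicle (2.65 ± 0.67, edgeR adjusted p = 0.00329) and with sacubitrilat than with vehicle (2.56 ± 0.68, edgeR adjusted p = 0.0062), while EGR1 was not called in either. NAB2 was at 0 in some libraries. The 5 genes of its list, the other EGR genes and their co-repressors, summed to 12, 4 and 5 counts in the vehicle libraries. Of 18 other AP-1 and CREB family genes, 3 were higher and 3 lower with endothelin-1 than with vehicle (16.7% each), CREB1, which binds the cAMP response element, at -1.02 ± 0.22 (edgeR adjusted p = 0.000557).

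**Figure D4:**
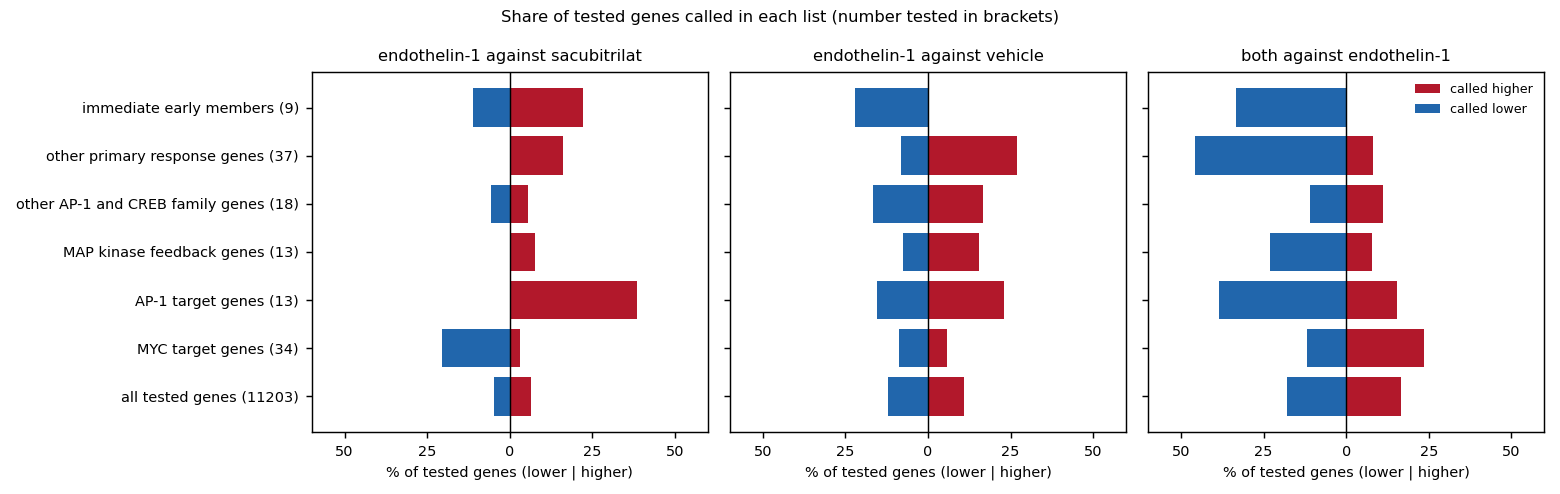
Percent of the tested genes of each list called higher (to the right, red) or lower (to the left, blue) in 3 comparisons, with the number tested in brackets and all 11203 tested genes as the last row. Both against endothelin-1 shows 17 of 37 other primary response genes lower, and endothelin-1 against sacubitrilat shows 5 of 13 AP-1 targets higher.

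Genes of handling stress were examined because dissociation of cells is known to induce immediate early genes. HSPA1A and HSPA1B are near-identical neighbours that encode the inducible heat shock protein of the HSP70 kind, and their reads may not be separable. Depth and treatment cannot be told apart in the 2 comparisons that follow. With endothelin-1 against vehicle, HSPA1A was at -2.66 ± 0.47 (edgeR adjusted p = 4.59e-05), and with both against endothelin-1 at 2.97 ± 0.51 (edgeR adjusted p = 2.09e-05). HSPB1 (0.99 ± 0.26 and -1.38 ± 0.28) and HSP90AA1 (0.56 ± 0.19 and -0.97 ± 0.22) were called the other way in these 2 comparisons. Of 14 handling stress genes tested, 2 were higher and 2 lower in the first, beside 1231 and 1365 of 11203 genes. In the second, 3 were higher and 5 lower, beside 16.6% and 17.8% of all tested genes. The summed level of the 14 genes of that list was 3340 to 3770 CPM with both, 4540 to 4600 with endothelin-1, 4780 to 4960 with sacubitrilat and 3620 to 4090 with vehicle, and its part in the results above was not tested. Of 13 ATF3 and integrated stress response genes, 2 were higher and 4 lower with endothelin-1 than with sacubitrilat (beside 6.44% and 4.78% of all tested genes), where ATF3 was at -0.75 ± 0.34 (edgeR adjusted p = 0.161). ASNS, the gene of asparagine synthetase and a target of ATF4, fell by 0.97 ± 0.21 there (edgeR adjusted p = 0.000866), and GDF15, a stress-induced cytokine, rose by 0.93 ± 0.19 (edgeR adjusted p = 0.000697).

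Some features of structure recur among the members, none in all 10. FOSB, JUNB, JUND and IER2 lie on chromosome 19, and 5 of 10, JUN, JUNB, JUND, IER2 and IER3, have 1 exon in their longest coding transcript. The shares of all genes with these 2 features were not counted. The AU-rich pentamer ATTTA, a mark of short-lived mRNAs, occurred in the 3′ untranslated region of 9 members, all but IER2, beside 66.8% of 19128 genes, whose median was 2. IER3 had 6, FOS 5 and MYC 4, each more than that median, and 23.5%, 27.9% and 33.3% of genes had as many or more. JUNB was at the median, and EGR1 and JUND had 1. Genes on the opposite strand overlap 4 members. ERCC1 overlaps FOSB with 860 counts in all 12 libraries, HOOK2 overlaps JUNB, IER3-AS1 overlaps IER3 with 43 counts, and AC011446.2 overlaps IER2 with 0. The libraries are stranded, but whether the counting used strand is not known from the labels, so reads of these pairs are uncertain.

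Genes among those most like each of 9 members over the 12 libraries, among 6455 with a mean of at least 20 counts, differed from member to member. Pearson r of log2 CPM was 0.963 between JUN and EVL, 0.96 between JUND and GLOD4, 0.952 between FOS and PICK1, 0.986 between EGR1 and CHURC1-FNTB, and 0.897 between IER2 and PEDS1. It was 0.892 between JUNB and NSA2, 0.889 between ATF3 and NFATC2IP, 0.869 between IER3 and MT2A, and 0.904 between MYC and NOL7. These values share library and depth, and with 4 groups of unequal depth they are a description.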

How the data were processed

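RNA of 12 samples was captured with a poly(dT) primer carrying a unique molecular identifier and made into stranded, single-end 3′-end libraries, per the labels' protocols. The submitters' processing notes name fastp 0.24.0, featureCounts and GRCh38. Not given in the sources used here are the aligner, the gene annotation, whether identifiers were collapsed, and the strand option. Per gene, the authors deposited estimated counts, some of them not whole, and CPM. Recomputing CPM from the counts gave the deposited CPM.

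Here the counts were rounded and tested with edgeR 4.0.16 (R 4.3.3, quasi-likelihood, TMM scaling, filterByExpr), in 1 fit of all 12 libraries with group as the sole term. It kept 11203 genes and 9 members, and p was adjusted by Benjamini-Hochberg over all of them, with a threshold of 0.05. SE is the log2 fold change over the root of the F statistic, and 95% intervals follow from it. Counting intervals (95%, exact) cover counting error only. The members, the lists and the comparisons were chosen with earlier results of these data known. All 10 members are described. Of other lists, genes named come from the 2 called per direction and comparison with the smallest p and a mean of at least 5 CPM, and the genes most like a member by Pearson r of log2 CPM (prior count 2). Alternatives were RLE scaling, no filter, DESeq2 1.42.0, limma-voom (limma 3.58.1), a replicate block, the compared groups alone, thinning to 80000 counts and each library left out, with the filter applied anew. Leaving out the 2 libraries under 100000 counts was added after seeing the data. Same-numbered libraries had deviations with r of -0.146 to 0.0396 over 18 pairs, so the numbers were not treated as pairs. The tests were checked on simulated counts. Figures used matplotlib 3.10.9 in Python 3.11.15. Results of some genes are not reported here.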

Additional observations from a re-analysis of the deposited data

Results flagged for a closer look

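For 3 members the interaction test of edgeR called a difference between the effect of endothelin-1 in cells given sacubitrilat and its effect in cells not given it, beside 46.1% of all tested genes. The difference was 2.41 for FOS, where the log2 effect of endothelin-1 was 2.06 with sacubitrilat and -0.35 without. It was 1.70 for IER3, with effects of 0.80 and -0.90, and -1.01 for JUND, with effects of -0.87 and 0.15. The contrast sets the 2 groups of low total against the 2 of high total, so depth and treatment cannot be told apart in it. With no filter on low counts, FOS (1.69, edgeR adjusted p = 0.255) and IER3 (0.97, edgeR adjusted p = 0.0996) were not called, JUND was (-1.74, edgeR adjusted p = 0.000151), and the members had 0 higher and 3 lower.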

How the results depend on the processing

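With RLE scaling and with the replicate block every member kept its side of the threshold (63 values each). No called member changed direction, and the direction of members not called was not compared. The block called 2, 3, 1, 4, 0 and 3 members in the 6 comparisons, as without it, and 3 in the interaction. Of all tested genes it called 21%, 32.1%, 17.2%, 32.5%, 0.0893% and 8.6%, and 43.9% in the interaction. Thinning to 80000 counts left 1825 genes and 2 members to test (JUND and IER3). It called 0 members in endothelin-1 against vehicle, both against endothelin-1, both against sacubitrilat, endothelin-1 against sacubitrilat and the interaction, where JUND was at 0.00. Of the 1825 genes, 24.2%, 42.8%, 44.3%, 0.603% and 50.7% were called in these. Without a filter 1 member was called in endothelin-1 against vehicle, both against sacubitrilat had 0 higher and 4 lower, and the interaction 0 higher and 3 lower. Of all genes then tested, 6.31%, 12.3% and 16.1% were called in these. The median of all genes then moved to 0.29 in endothelin-1 against vehicle, -0.50 in both against endothelin-1 and -1.32 in the interaction, over 40745 genes. Limma-voom called 2 members in sacubitrilat against vehicle and 1 in endothelin-1 against sacubitrilat, beside 23.1% and 4.21% of all tested genes. DESeq2 called 1 higher and 2 lower in both against endothelin-1, beside 33.1% of all tested genes called. Without the 2 libraries under 100000 counts, 2 were called in both against sacubitrilat, beside 26.1%. Leaving out each library in turn gave 1 to 2 calls in endothelin-1 against vehicle, 0 to 3 in both against endothelin-1, 1 to 2 in sacubitrilat against vehicle, 0 to 3 in both against sacubitrilat, 3 to 4 in endothelin-1 against sacubitrilat and 1 to 4 in the interaction. In the same order, the share of all tested genes called was 12.9% to 29.8%, 21.9% to 42.5% and 10.4% to 25.4%. It was 22.7% to 41.8%, 9.14% to 12.2% and 36.4% to 52.8% in the last 3. Without an endothelin-1 or sacubitrilat library the filter kept 6 members. The vehicle and combined groups limit the depth, with 1 to 9 summed counts for FOS, FOSB, EGR1, ATF3 and MYC in at least 1 of them.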

Other observations

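Serum response factor and its ternary complex partners (7 tested) gave 1 called higher and 1 lower with endothelin-1 than with vehicle. FHL2, a co-factor rich in heart, was higher by 2.26 ± 0.34 (edgeR adjusted p = 3.42e-06) and also higher with endothelin-1 than with sacubitrilat (1.41 ± 0.13, edgeR adjusted p = 3.54e-10). MRTFA, the actin-sensing co-activator of serum response factor, had 2.52 ± 0.24 with both against endothelin-1 (edgeR adjusted p = 2.74e-10) and -1.79 ± 0.25 with endothelin-1 against vehicle (edgeR adjusted p = 9.36e-07).

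Markers of other cell types that the cultures could hold were also counted. Endoderm and liver markers were lower for 7 of 7 tested with endothelin-1 than with vehicle, EPCAM, an epithelial adhesion gene, at -2.99 ± 0.34 (edgeR adjusted p = 2.19e-08). They were higher for 6 of 7 with both than with endothelin-1, where EPCAM was at 3.40 ± 0.36 (edgeR adjusted p = 2.44e-09), and for 6 of 7 with both than with sacubitrilat. Of all tested genes, 12.2% were lower in the first of these comparisons, and 16.6% and 17.2% higher in the next 2. In the 2 comparisons of like total, both against vehicle and endothelin-1 against sacubitrilat, 0 of 7 were called. Of 7 smooth muscle markers 5 were higher with endothelin-1 than with vehicle, and 4 were lower with both than with endothelin-1. Of 9 epicardial markers 6 were lower with endothelin-1 than with sacubitrilat, TBX18 at -1.98 ± 0.19 (edgeR adjusted p = 3.54e-10). Of 11 fibroblast markers, 1 was higher and 2 were lower in that comparison, with POSTN at 1.54 ± 0.16 (edgeR adjusted p = 1.74e-09). Of 7 endothelial markers 1 was tested and was not called in any comparison. The part of these cells in the values of the immediate early genes was not tested.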
